A study of Homo sapiens with 5 samples.

Results

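A block of neighbouring transcripts whose ribosome footprints were lower in 1 library, that of QTRT1 knockout cells, was described row by row. Its members are the rows 144907 to 150279 of the deposited tables, counted from 1, that carry a length and at least 100 counts summed over the 5 libraries. They number 1406 of the 48695 rows of the whole table that meet the same length and count conditions. The members were chosen by their row position, their summed count and the log2 ratio of the QTRT1 library to the other 4, which is low along these rows. The size of that shift is therefore a description, with no test. The libraries came from HEK293T, an established human embryonic kidney cell line, labelled as epithelial. QTRT1 KO cells gave 1 library, QTGAL KO cells gave 2 and QTMAN KO cells gave 2, where KO stands for knockout. All carry a knockout, libraries of cells without one were not analysed here, and the labels do not say whether libraries of a genotype came from separate cultures or clones. P-values therefore reflect how far these particular libraries differ, and that variation may be technical.

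Ribosome profiling sequences the stretch of mRNA that a translating ribosome shields from RNase I, so that the count for a transcript follows both how much of its mRNA is present and how densely ribosomes sit on it. Queuosine replaces guanosine at the wobble position in those tRNAs that decode aspartate, asparagine, histidine and tyrosine. The enzyme that swaps the base in has QTRT1 as its catalytic subunit. QTGAL and QTMAN then attach galactose to queuosine in the tyrosine tRNA and mannose to queuosine in the aspartate tRNA. The series' title asks how this glycosylation bears on translation. The tables name transcripts by identifier and do not pair them with genes, so transcripts are given here by row number, with at most 2 identifiers in each direction, and gene groups, markers of the cell line and the targeted genes were not checked.

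The 5 tables summed to between 12002044 and 25291912 counts. The QTRT1 library, with 13918194, was deeper than QTGAL replicate 2, the shallowest. The block spans 5373 table rows. Of these, 2421 had no length and no count, 545 had a length but no count in any library, 1001 had between 1 and 99 counts and 1406 reached 100. The share of rows with a length that reached 100 counts was 47.6% in the block and 52.0% outside it. Isoforms of a gene can share footprints, and the 1406 rows held 1241 distinct count patterns. Successive rows within 2-fold of each other in counts per codon were joined, which gave 237 runs, of 1 to 32 rows each. Rows of a run are not independent of each other. Runs follow density and not genes, so rows of 1 gene may fall in several runs, and a run may join several genes.

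Footprints of the block were lower in the QTRT1 library than in each of the other 4. The measure is the log2 ratio of a row's CPM (counts scaled to a common library size with TMM factors, plus 0.5 CPM) in the QTRT1 library to its median over the other 4. Its median over the 1406 rows was -0.40, a linear ratio of 0.756, with quartiles of -0.57 and -0.20. Over the 47289 rows outside the block that met the same conditions the median was 0.00, with quartiles of -0.19 and 0.19. The width between the quartiles was 0.366 in the block and 0.375 outside. The rows of the block thus lay lower as a body, and were spread about as widely as the pooled rows elsewhere. Ratios in the block ran from -1.46 to 0.50. Below 0 lay 1317 of the 1406 rows, 93.7%, where the share over all 48695 rows was 51.2%. In 970 rows, 69.0%, the QTRT1 library was the lowest of the 5, against 25.4% over all rows.

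**Figure D1:**
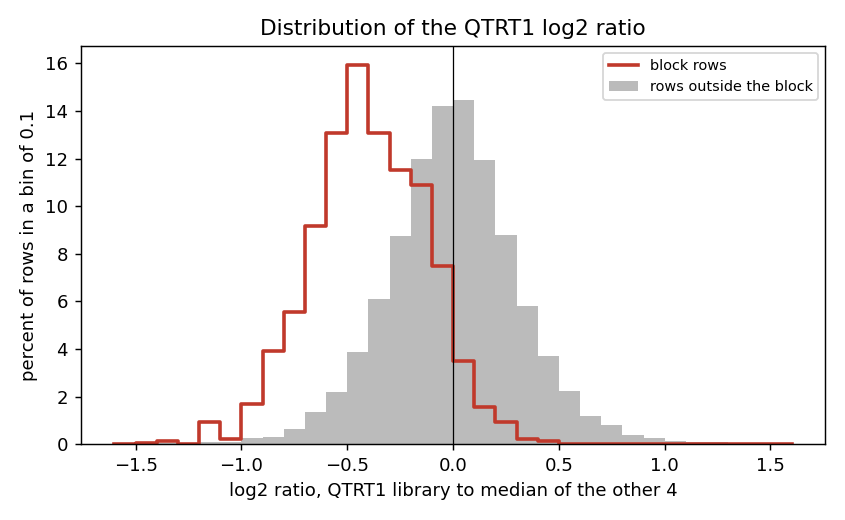
Distribution of the log2 ratio of the QTRT1 library to the median of the other 4 libraries, as the percent of rows (vertical axis) in bins of 0.1 (horizontal axis), for the 1406 block rows (red line) and the 47289 rows outside the block (grey bars). The block's distribution has a median of -0.40 and the outside one of 0.00, with similar widths.

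In every library the block was a few percent of the counts. It held 2.9% of the counts in the QTRT1 library. It held 3.92% and 3.5% in QTGAL replicates 1 and 2, and 3.92% and 3.89% in QTMAN replicates 1 and 2. The median level of a block row was 3.77 CPM in the QTRT1 library. For QTGAL KO it was 5.37 and 4.72 CPM, and for QTMAN KO 5.29 and 5.28 CPM. The QTRT1 value lay below all 4 others, and QTGAL replicate 2 was the lowest of those.

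Set against the other libraries singly, the QTRT1 library was lower by a median log2 difference of -0.45 against QTGAL replicate 1 and of -0.27 against QTGAL replicate 2. Against each QTMAN replicate the median difference was -0.415. Outside the block these 4 medians lay between -0.002 and 0.007. Among the other 4 libraries the widest median difference over the block was 0.19, between QTGAL replicates 1 and 2, and that between the QTMAN replicates was 0.011. The smallest of the QTRT1 differences was therefore larger than the largest difference among the other libraries. These 4 comparisons share the QTRT1 library, which has no replicate, and the row choice rests on it. Whether fewer mRNA molecules, fewer ribosomes on each or fewer cells with these transcripts lie behind a lower count cannot be told apart in these libraries.

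The shift was present at all coding lengths, with medians between -0.43 and -0.38. The length column was read as codons. The median log2 ratio was -0.41 for the 220 rows of up to 100 codons and -0.42 for the 640 rows of over 100 and up to 300. It was -0.38 for the 416 rows of over 300 and up to 1000 codons and -0.43 for the 130 rows of over 1000. The 4 classes differed by less than the width between the quartiles of any of them, which was 0.298 at the least. Outside the block the medians rose with length in the QTRT1 library, from -0.062 in the shortest class to 0.050 in the longest. Block minus outside, the medians differed by -0.344, -0.396, -0.404 and -0.481 from the shortest class to the longest. Across block rows the rank correlation of the ratio with length was 0.071 (1406 rows in 237 runs, all from the same 5 libraries), against 0.127 outside.

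Taken over all lengths, more abundant rows were more uniform and slightly further down. The median ratio was -0.35 for the 474 rows of 100 or more but under 300 counts over the 5 libraries and -0.38 for the 546 rows under 1000. It was -0.44 for the 209 rows under 3000 and -0.48 for the 177 rows of 3000 or more. The width between the quartiles narrowed along the same classes, from 0.429 to 0.343, 0.313 and 0.165. The last of these was narrower than the 0.277 of the 5688 outside rows of that abundance. Rows that share footprints repeat a ratio, as the 9 rows of the run at 146055 do, at -0.68 to -0.66. Such repeats can narrow the width over rows. All 177 rows of 3000 or more counts, in 52 runs, lay below 0, from -0.92 to -0.043, where 55.7% of outside rows of that abundance did. The rank correlation of the ratio with the summed count was -0.164 across block rows and -0.066 outside, and with counts per codon -0.205 and -0.147. The added 0.5 CPM pulls the ratios of rare rows towards 0. The gradient is therefore not free of the way the ratio was computed. Nor was it steady at every length. Up to 100 codons the medians were -0.367, -0.399, -0.261 and -0.517 from the rarest class to the most abundant. The third of these came from 18 rows in 7 runs. Over 1000 codons they were -0.38, -0.313, -0.468 and -0.449. In the length classes between, the medians fell at each step.

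**Figure D2:**
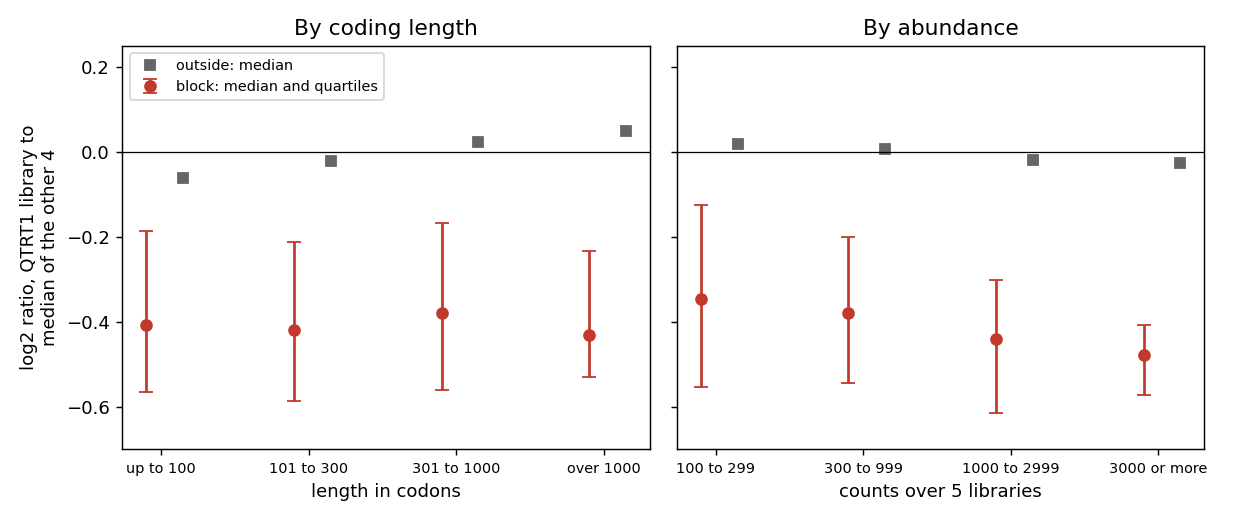
Median log2 ratio of the QTRT1 library to the median of the other 4 (vertical axis) by coding length in codons (left) and by counts over 5 libraries (right). Red points with bars are the medians and quartiles of block rows, grey squares the medians of rows outside. Medians in the block lie between -0.48 and -0.35 in all 8 classes, and the bars narrow with abundance.

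The 1001 rows of the block that did not reach 100 counts moved the same way when pooled. They held 3480 counts in the QTRT1 library, a pooled level of 248 CPM. The pooled levels were 334 and 303 CPM in QTGAL replicates 1 and 2 and 331 and 325 CPM in QTMAN replicates 1 and 2. The QTRT1 level was 0.755 of the median of the others, where the same ratio for the 1406 rows pooled was 0.743. For the 29652 outside rows of 1 to 99 counts it was 1.06. The 1001 rows lie in the same row range, are measured in the same libraries and may share footprints with members. They are therefore no independent support for the shift. At the count minimum itself, 3 rows of exactly 100 counts, at 148168, 148376 and 148937, had log2 ratios of -0.53, -0.16 and -0.65. The 3 rows of 99 counts that just missed it, at 145347, 146841 and 148167, had -0.06, 0.33 and -0.38. These 6 rows had between 8 and 19 counts in the QTRT1 library, so single ratios at this depth carry little weight. The rows at 148167 and 148168 are neighbours with nearly the same counts in each library, and may share footprints.

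The lower rows began abruptly, somewhat before the first row of the block. A least-squares search for the single stretch that differed most from its surroundings was run over 727 runs of at least 500 counts, within 10000 rows on either side. It placed the start at row 144724, which is 183 rows before row 144907. That row, of 833 codons, had 14.7 CPM in QTRT1 KO cells, with 19.1 and 18.6 CPM for QTGAL KO and 18.0 and 19.4 CPM for QTMAN KO. The QTRT1 value was below all 4 others, at a log2 ratio of -0.35. The last run before it, at row 144613, had 0.39, and the next runs, at rows 144732 and 144753, had -0.40 and -0.68. By groups of 100 table rows, the median ratio was 0.22 and 0.34 in the 2 groups before row 144701 and -0.56 in the group that follows. Over the 1217 rows at the count minimum in the 5000 table rows before the stretch, the QTRT1 library lay above the others, at a median of 0.12. The 6 alternatives tried gave the same first row. The serial identifiers step by 1 place across row 144724 itself. The largest step within 500 rows on either side, of 56 places, came after row 144673, between the last higher run and the first lower one. Steps of that size or more numbered 10 among the 60283 of the series that runs from row 90754 to row 172102. Within the block no step exceeded 6 places. What the step marks was not tested.

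Inside the block the shift was present throughout, but uneven. Cut into 11 equal parts, the block had median ratios between -0.48 (rows 146860 to 147348, 124 members) and -0.29 (rows 145395 to 145882, 142 members). The share of members below 0 lay between 87.3% and 97.5% over the 11 parts. QTGAL replicate 2 was the lowest of the other 4 libraries in all 11 parts. QTGAL replicate 1 lay between 0.1 and 0.232 and QTGAL replicate 2 between -0.169 and -0.040, each as the median log2 ratio to the other 4. Narrow stretches within parts came closer to 0, such as the 13 rows between 145201 and 145300, at -0.073, and the 15 rows between 145801 and 145900, at -0.084.

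**Figure D3:**
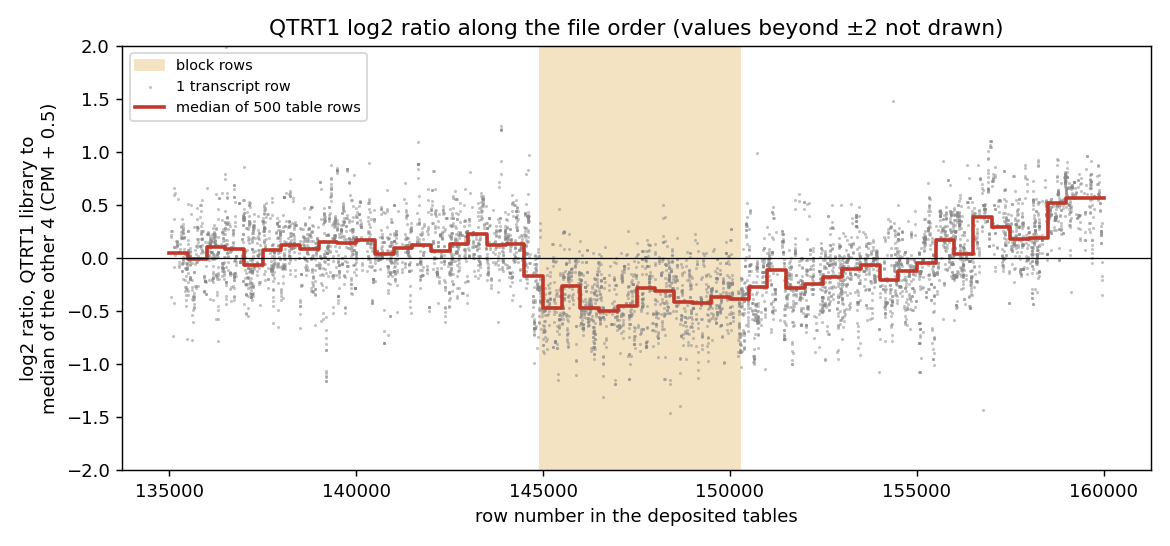
Log2 ratio of the QTRT1 library to the median of the other 4 (vertical axis) along the row number of the deposited tables (horizontal axis). Grey points are single transcript rows, the red line is the median of each 500 table rows, and the block is shaded. The line drops from 0.13 through -0.17 to -0.47 around the start of the block. After the block's end it rises unevenly, and reaches 0.56 at the right edge.

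The far end was gradual, and how it is placed depended on the libraries compared. At the last row of the block, 150279, the ratio was -0.89, and the next runs, at rows 150307 and 150324, had -0.45 and -0.37. The same search placed the end of the lower stretch at row 154903, well beyond the block, but at row 152489 when either QTMAN replicate 1 or QTMAN replicate 2 was left out of the median and at row 155528 without QTGAL replicate 1. From row 150280 to row 151438 the median ratio was -0.28 (366 rows), and from there to row 154903 it was -0.18 (1021 rows). In the 3000 table rows that follow, it was 0.15. The row at 154903 had 27.8 CPM in QTRT1 KO cells, with 26.1 and 29.9 CPM for QTGAL KO and 31.0 and 29.7 CPM for QTMAN KO. There the QTRT1 value lay within the range of the others, at a log2 ratio of -0.1. From row 152501 to row 155000, QTGAL replicate 1 had a lower median ratio than the QTRT1 library in each group of 500 rows. Both QTMAN replicates had positive medians in these groups.

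The block was not the only place where the QTRT1 library lay this low. The table was divided into groups of 500 rows, of which 362 held at least 50 rows at the count minimum. Of the 10 groups wholly inside the block, 8 had a median ratio of -0.3 or less. Of the 352 others, 10 did, 2.84%, and 5 had a median of 0.3 or more. Among those 10 is the group of rows 150001 to 150500, at -0.389, which lies partly inside the block. Successive groups at rows 14501 to 16000, far from the block, had medians of -0.328, -0.309 and -0.302. The longest such stretch outside, rows 160001 to 162500, lay mostly beyond the rows searched for the ends. Its 5 groups had medians between -0.46 and -0.30 and between 88.0% and 95.6% of rows below 0. Its lowest group was nearly as low as the lowest inside the block, at -0.495. Just before it, rows 159501 to 160000 had a median of 0.56.

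What changed along this end was not the QTRT1 library alone. QTGAL replicate 1 stepped down at row 151439, by a least-squares search over the 149 runs in the 5000 rows after the block, from a median ratio of 0.16 to -0.22. Before that step, from row 150280, the QTRT1 library lay below QTGAL replicate 1 by a median of -0.35. After it, up to row 154903, the difference was 0.019. Against the QTMAN libraries the QTRT1 library stayed lower over the same rows, by medians of -0.32 and -0.27 after the step. Against QTGAL replicate 2 the medians were -0.067 before it and -0.15 after it. QTGAL replicate 1 thus differed from QTGAL replicate 2 by 0.22 before and by -0.16 after the step, although both carry the same labelled genotype. The sign of the difference between libraries of that genotype turned there. QTGAL replicate 2 rose at the same place, from a median ratio of -0.241 (rows 151001 to 151250) to 0.114 (rows 151251 to 151500). After the step the difference between the QTGAL replicates was uneven. It was -0.333 in rows 151501 to 152000, -0.004 in rows 153001 to 153500 and -0.163 in rows 154501 to 155000.

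**Figure D4:**
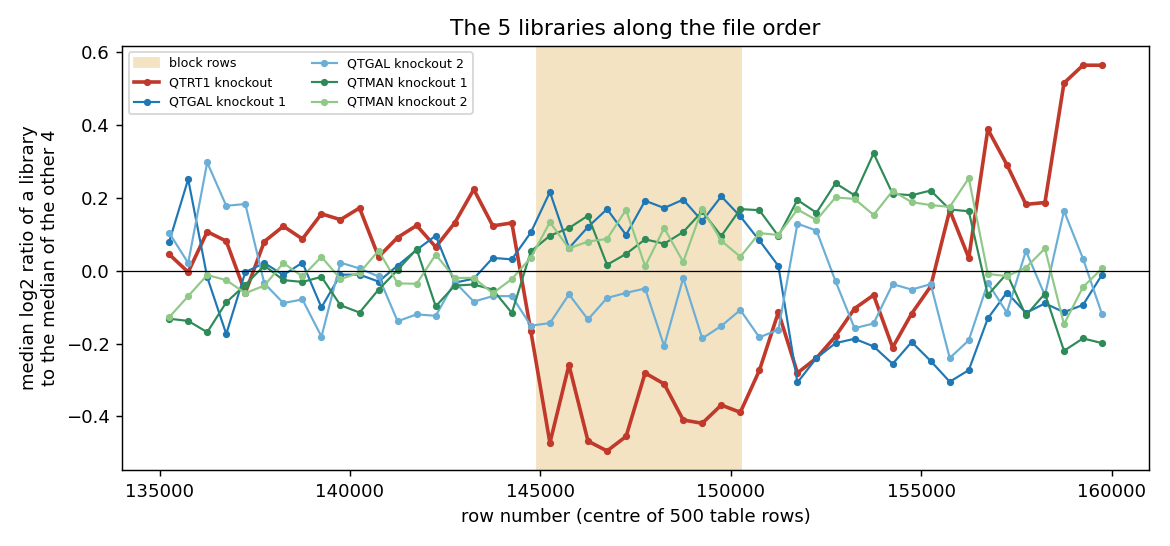
Median log2 ratio of each library to the median of the other 4 (vertical axis) over successive 500 table rows (horizontal axis, row number), with the block shaded. The QTRT1 library is the lowest line throughout the block, and QTGAL replicate 1 falls to it at about row 151439.

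The most abundant rows show the shift at a depth where counting error is small. The row at 146223, of 407 codons, had 471 CPM in QTRT1 KO cells, with 624 and 583 CPM for QTGAL KO and 690 and 754 CPM for QTMAN KO. The QTRT1 value lay below all 4 others and the log2 ratio was -0.48. The row at 149713, of 197 codons, stood at 363 CPM, against 489 and 459 CPM and 505 and 543 CPM in the same order. Its ratio was -0.45. The row at 144946, of 2336 codons, stood at 244 CPM, against 353 and 286 CPM and 342 and 342 CPM, a ratio of -0.49. These 3 transcripts, of 407, 197 and 2336 codons, had nearly the same ratio. The other lower rows among the 8 of highest count, taking 1 per run, at 146234, 146055, 146591 and 148380, had ratios between -0.66 and -0.36. The rows at 146223 and 146234 lie close together and may share footprints, although their runs differ.

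The row with the most counts of all was an exception. The row at 147156, of 230 codons and 84488 counts, had 855 CPM in QTRT1 KO cells, with 839 and 919 CPM for QTGAL KO and 916 and 988 CPM for QTMAN KO. The QTRT1 library lay within the range of the others there, above QTGAL replicate 1. The log2 ratio was -0.10. Set against the other 4 libraries pooled, the ratio had an exact 95% binomial interval of -0.13 to -0.07, which covers counting error only. The median of the same pooled ratio over the block was -0.47, well outside it. All 8 rows of its run, between 147155 and 147163, had ratios between -0.13 and -0.07. Among the 177 rows of 3000 or more counts, 21 rows in 8 runs had ratios above -0.2, and 8 of the 21 were the rows of this run. Of these 177 rows the one at 147988, of 4916 counts, lay nearest to 0, at -0.04. The run at 145859 to 145866, in which 1 row passed 3000 counts, had ratios between -0.07 and -0.02.

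The lowest ratios of well-counted rows were 0.45 and 0.481 on the linear scale. Among rows of at least 500 counts, uc059ztv.1 at row 145389, of 204 codons, was lowest. It had 60 counts in the QTRT1 library, 4.27 CPM, against 11 and 9.69 CPM for QTGAL KO and 7.92 and 10.5 CPM for QTMAN KO. Its log2 ratio was -1.15, with a pooled interval of -1.62 to -0.84. The transcript uc060eao.1 at row 149143, of 305 codons, had 2.78 CPM, against 7.13 and 4.97 CPM and 5.50 and 7.66 CPM in the same order, a ratio of -1.06. In both rows the QTRT1 library was lower than the other 4. In the deeply counted row 150213, of 114 codons, the level was 87.6 CPM for QTRT1 KO. The QTGAL replicates had 126 and 150 CPM there and the QTMAN replicates 188 and 182 CPM, so that the ratio was -0.92 and the 3 genotypes did not overlap. Ratios of -1 or less were found in 19 block rows, 1.35%, against 0.332% outside.

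**Figure D5:**
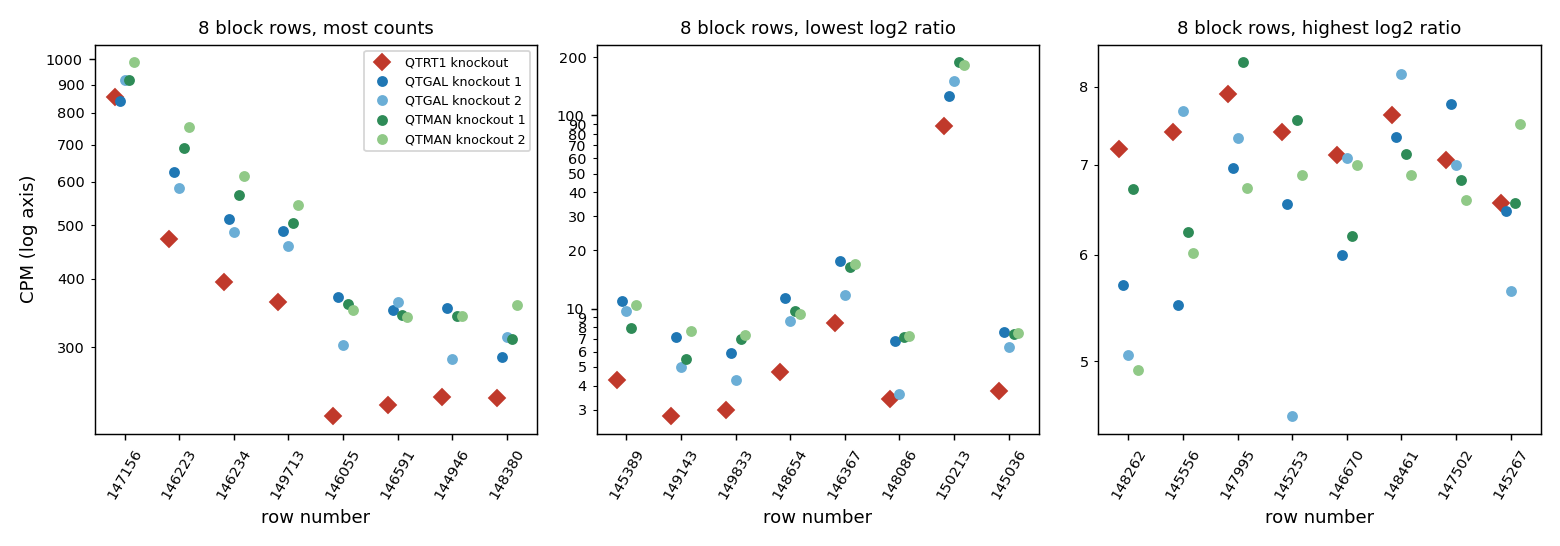
CPM on a log axis (vertical) in each of the 5 libraries for 8 block rows of most counts (left), lowest ratio (middle) and highest ratio (right), each named by its row number (horizontal axis), at most 1 per run. The QTRT1 library (red diamonds) is the lowest in the left and middle panels except at row 147156, where it stands at 855 CPM between 839 and 988 CPM.

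Rows that escaped the shift were few and mostly of low count. A ratio of 0 or more was found in 89 rows, 6.33% of the block, against 50.0% of the rows outside it. Without QTGAL replicate 1 in the median, the number was 134. The 89 rows had a median of 203 counts, where the rows below 0 had 497, and 1.17 counts per codon, where the others had 2.44. Their median length was 283 codons, against 218. By abundance, 59 of the 474 rows under 300 counts escaped, then 28 of the 546 under 1000, 2 of the 209 under 3000 and none of the 177 above. By length, the share was 7.27% up to 100 codons, 5.0% from there to 300, 9.13% from there to 1000 and 2.31% above 1000. Outside the block, 47.5%, 48.7%, 52.6% and 55.7% of rows lay below 0 from the rarest abundance class to the highest. From the shortest length class to the longest, 58.4%, 53.2%, 45.8% and 41.7% did. With the cut at 0, the run at rows 147155 to 147163 does not count as escaping. It had up to 84488 counts and ratios between -0.13 and -0.07.

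Escaping rows seldom stood in long unbroken groups. They fell into 61 groups of successive members, of which 43 were single rows and the largest held 5 rows. A lower row in between splits a group, so near rows of like ratio can be counted apart. Those at 145545, 145547, 145549 to 145550 and 145556 to 145558 were, at median ratios of 0.24 to 0.25. The number of groups therefore does not show how many separate places escaped. Of the 237 runs, 45 had at least 1 row at 0 or more and 9 had every row there. In the other 36, escaping rows lay beside lower rows of like footprint density. The largest whole run that escaped, rows 150015 to 150021, held 5 rows of 366 to 479 codons and up to 202 counts, with ratios between 0.04 and 0.27. The deepest was the run at rows 147995 to 147999, of 102 to 125 codons and up to 1052 counts, at 0.04 to 0.14. Along the block, the fewest escaped between rows 146372 and 146859 and between 149303 and 149790, with 3 of 110 and 3 of 119. The most escaped between 147349 and 147836, with 17 of 134.

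The highest ratio among rows of at least 500 counts was that of uc060czn.1 at row 148262, of 180 codons. It had 7.19 CPM in QTRT1 KO cells, with 5.70 and 5.05 CPM for QTGAL KO and 6.71 and 4.92 CPM for QTMAN KO. The QTRT1 value was the highest of the 5 and the log2 ratio was 0.39. Ratios in its run of 9 rows ranged from -1.14 to 0.39, so neighbours of like density did not all share it. Whether the rows of this run belong to 1 gene was not checked. The transcript uc010vss.3 at row 145556 stood at 7.40 CPM, against 5.50 and 7.67 CPM and 6.24 and 6.02 CPM in the same order, a ratio of 0.25 at which the libraries overlapped. Ratios of 0.2 or more were found in 18 rows, 1.28%, against 23.6% outside.

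Counting error bounds what a single row can show. For the pooled ratio, the exact 95% binomial interval lay wholly below 0 in 792 of the 1406 rows, 56.3%, against 16.4% over all rows at the count minimum. It lay wholly above 0 in 3 rows, 0.213%, those at 148205, 148210 and 148262, against 15.2% over all rows at the count minimum. It spanned 0 in 611. Over all 1406 rows, 147 had an interval wholly above the block's own median of -0.47, 131 wholly below it, and 1128 included it. The 89 escaping rows were picked by the same counts, so their intervals are no test. Of these, 38 included the block's median, and at their depth could not be told from the rest of the block. The row at 148205, of 725 codons, had 6.55 CPM in the QTRT1 library and between 4.10 and 5.62 CPM in the others, with an interval of 0.08 to 0.75. Reads without molecular identifiers are not independent molecules, and these intervals leave out the spread between libraries.

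In the fit across the whole table, few block rows passed the threshold for the contrast that chose them, and nothing is read from that count. All 1406 rows were among the 60966 tested. With edgeR's quasi-likelihood test and an adjusted p threshold of 0.05, 4 were lower in the QTRT1 library than in the mean of QTGAL and QTMAN knockout, against 0.0394% of all tested rows, and none was higher, against 0.121%. Under an unadjusted p of 0.05, 498 were lower, against 5.55% of all tested rows, and 1 was higher, against 5.69%. The rows past the adjusted threshold were those at 150212, 150213, 150217 and 150279, named because they are few. Those at 150212, 150213 and 150217 fall in 1 run of 3 rows and are not independent of each other. The row at 150279, of 1102 codons, had 139 CPM in QTRT1 KO cells, with 270 and 244 CPM for QTGAL KO and 244 and 294 CPM for QTMAN KO. The fitted log2 fold change there was -0.92 ± 0.14 (SE worked back from the edgeR test statistic). The row at 150213 had -0.87 ± 0.14 (SE worked back in the same way). These values rest on 1 QTRT1 library and on the contrast that chose the rows, so they are descriptions and not tests. The count moved with the library left out, and so did the share of all tested rows called lower. It was 3 without QTGAL replicate 1, against 0.0406% of all rows, and 50 without QTGAL replicate 2, against 0.232%. It was 45 without QTMAN replicate 1, against 0.256%, and 165 without QTMAN replicate 2, against 0.943%. DESeq2 called 39 of the 746 block rows to which it gave an adjusted p, all lower, against 0.337% of all rows so tested.

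The contrast of QTGAL with QTMAN knockout was not used to choose the rows. Its count of called rows was 0 in the block and over the whole table, so nothing about the block is read from it. With edgeR, 0 of the 1406 rows passed the adjusted threshold in either direction, where 0.0% of all 60966 rows did. Under an unadjusted p of 0.05, 42 were lower in QTGAL knockout, against 3.3% of all rows, and 19 were higher, against 3.19%. As shares of the block these are 2.99% and 1.35%. DESeq2 called 0 of the 138 block rows to which it gave an adjusted p, where it called 0.284% of all such rows lower in QTGAL knockout. Both QTGAL libraries lay below both QTMAN libraries in 275 block rows, 19.6%, where 18.4% of all rows did, and above them in 165, 11.7%, where 18.6% did.

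As a median over the block, QTGAL knockout differed from QTMAN knockout by -0.057 on the log2 scale, and outside it by 0.003. Measured from the mean of the 4 libraries, QTGAL replicates 1 and 2 lay at 0.074 and -0.13, on either side of the QTMAN replicates at 0.037 and 0.032. The groups overlapped, and the difference of -0.061 between the means of these library values was smaller than the SD of 0.143 between the QTGAL libraries. An exact two-sided permutation test over the 4 libraries gave p = 1.0, with 0.333 the smallest it can give. Without QTGAL replicate 2 the median difference was 0.042, of the opposite sign, and without QTGAL replicate 1 it was -0.16.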

How the data were processed

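Ribosome footprints were measured in 5 HEK293T libraries (QTRT1 knockout 1, QTGAL knockout 2, QTMAN knockout 2). In each deposited table a transcript has its identifier, its length and its footprint count, a whole number without normalization. The deposited length column is a unit other than a count. It was read as codons because 33.1% of its values are multiples of 3. The submitters' processing notes name bcl2fastq 2.19, CASAVA, STAR 2.7.0a and the build hg38. Annotation, counting program, strand setting: not given in the sources used here. Shared footprints of isoforms may be counted for each row.

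The members, lists and tests were chosen with earlier results of these data known. CPM values were computed from the counts with TMM factors. Counts were tested with edgeR 4.0.16 in R 4.3.3: filterByExpr, then glmQLFit and glmQLFTest with 1 mean per genotype over all 5 libraries and 2 residual degrees of freedom, with Benjamini-Hochberg adjustment over all 60966 tested rows. DESeq2 1.42.0 was an alternative. The QTRT1 genotype has 1 library, assumed to vary like the others. Medians, intervals and searches used numpy 2.4.6 and scipy 1.17.1. The scripts were tested on simulated data.

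Named rows, at most 1 per run, were the 8 with most counts, the 8 lowest and 8 highest ratios among rows of at least 500 counts, those at the ends of the lower stretch and those nearest the count minimum, and 2 identifiers per direction are printed. The files do not pair identifiers with genes, so the planned gene families, cell line markers and residue shares were not run, and no sequence is shown.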

Additional observations from a re-analysis of the deposited data

How the results depend on the processing

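The median ratio of the QTRT1 library over the block kept its sign under the 12 alternatives tried. It was -0.269 over all rows with at least 1 count and between -0.436 and -0.372 without 1 of the other libraries. The share of rows below 0 was 92.0% with total-count scaling, 97.2% among rows with at least 500 counts and 78.6% over all rows with a count, and between 90.5% and 94.0% without 1 of the other libraries. Escaping rows numbered 19 among rows with at least 500 counts, 514 over all rows with a count, 15 with 1 row per run and between 85 and 134 without 1 library. The first 3 of these counts cover other numbers of rows.

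The lower stretch ended at row 155093 with runs of at least 100 counts and at row 154873 with total-count scaling, and between rows 152489 and 155528 without 1 library. The median difference of QTGAL from QTMAN knockout was 0.042 without QTGAL replicate 2, with a range of -0.159 to 0.042 over the 4 libraries. Its count of called block rows was 1 with no filter, where 188 of 79348 rows were lower in all, and between 0 and 2 without 1 library, the 2 without QTMAN replicate 2, where 289 of 59191 were. For QTRT1 against both, the whole table moved too. The count was 136 with no filter (9.67% of the block, 0.566% of all tested rows lower), 0 with 1 row per run (1 of 8669 in all), 39 with DESeq2 (5.23% and 0.337%) and between 3 and 165 without 1 library (24 and 558 in all). With the number in the titles as a replicate block it was 47 (3.34% and 0.254%), and 0 for QTGAL against QTMAN. The labels do not say that these numbers pair libraries, and deviations of the libraries numbered 1 correlated at 0.174. The cause was not tested. Depth limits single rows near 100 counts.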
